A study of Mus musculus with 4 samples.

Results

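The genes described here are the p53 module, 32 genes made up of the transcription factor p53, its relatives, its inhibitors and its best-known target genes. They were given as a list of names, and each was read in the deposited tables from the rows that carry its symbol, taking the transcript with the highest mean count over the 4 libraries. By that rule 30 of the 32 were found among the 22869 gene symbols of the tables. The other 2, Pidd1 and Tigar, stand under the older symbols Lrdd and 9630033F20Rik, were found by RefSeq accession, and are given apart.

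The cells were primary ductal cells of the pancreas, grown in culture from adult C57BL/6 mice. The 2 control libraries came from mice with floxed Hhex alleles (HhexL/L) and no Cre. The 2 libraries labelled knockout came from HhexL/L mice that also carried Sox9CreER, a tamoxifen-dependent Cre recombinase driven by the promoter of Sox9. All 4 cultures, controls included, received 500 nM 4-hydroxytamoxifen for 4 days. The Cre acts only in cells that use the Sox9 promoter, and no group carried the Cre without floxed alleles. A response to the Cre, including any cuts it makes in DNA, and a response to losing Hhex therefore cannot be told apart. DNA damage was not measured: the tables hold transcript levels only, so the module shows the RNA of p53 target genes and not p53 protein or DNA breaks. By the description of the series, the cultures came from 2 mice and 2 littermate controls.

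p53 is held at a low level by Mdm2 and Mdm4, which bind it and, through Mdm2, mark it for degradation. When DNA is broken, kinases such as Atm and Chek2 release p53 from this hold, and it switches on genes for growth arrest, repair, metabolism and cell death, among them Mdm2 itself, which closes a feedback loop. Primary epithelial cells put into culture often have an active p53 pathway. High levels of a Cre recombinase are known as a source of DNA breaks in several cell types.

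The 4 libraries held between 25257778 and 39582625 counts. Of 12 ductal markers, Krt8, Krt18, Krt19, Krt7 and Epcam lay between 429.6 and 9242 CPM (the count relative to the library's total, scaled by edgeR's TMM factors), while Onecut1 stayed at or under 0.536 CPM. None of the 12 was called, with 6 log2 fold changes above 0 and 6 below, from -2.24 for Muc1 to 1.297 for Sox9. At an unadjusted p under 0.05, Sox9 and Tspan8 (0.69) had higher values and Muc1 and Cftr (-0.94) lower ones, and the part of these differences in the module was not tested. Acinar, endocrine and lymphocyte markers summed to at most 6.05 CPM in any library, with no marker at 0 in all 4. Hhex itself read 24.8 and 17.7 CPM without Cre, against 23.6 and 39.0 CPM under the knockout label (edgeR adjusted p = 0.734). The groups overlapped, so the level of Hhex RNA did not show the loss that the label names. Which part of the gene is floxed is not in the labels, so counts from outside that part may remain. Sox9, whose promoter drives the Cre, read 18.0 and 21.4 CPM against 52.3 and 44.3 CPM (edgeR adjusted p = 0.0512). Library 2 of those labelled knockout was the 1 female library (Xist at 304 CPM, against at most 1.75 CPM in the others). In all, 32 of the 20949 transcripts tested, or 0.153%, had an edgeR adjusted p under 0.05 between the groups, 0.105% higher and 0.0477% lower in the libraries labelled knockout.

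No gene of the p53 module passed the test between the libraries with and without the Cre. All 30 were abundant enough to be tested, and the lowest adjusted p was 0.412, for Plk3 (edgeR quasi-likelihood test, Benjamini-Hochberg adjustment over all transcripts tested). At an unadjusted p under 0.05 there were 4 of the 30, where 7.51% of all transcripts were. Fas and Eda2r were the 2 with higher values in the libraries labelled knockout, or 6.67% against 4.70% of all transcripts. Plk3 and Trp53 were the 2 with lower values, or 6.67% against 2.81% of all transcripts. The median log2 fold change of the module was 0.03, beside -0.01 for all transcripts tested, with 16 values above 0 and 14 below, where 48.3% of all transcripts lay above 0. Without control replicate 2 the median of the module was 0.17, beside 0.03 for all transcripts tested. Without control replicate 1 it was -0.04, beside 0.02. The split depended on the scaling. With library totals or upper-quartile factors 13 values lay above 0 and 17 below, with module medians of -0.04 and -0.02. The medians of all transcripts under these scalings were lower too, at -0.09 and -0.06. On the authors' RPKM values it was 19 above and 9 below among the 28 genes past the filter, and 19 and 11 with no filter. The median of all transcripts on RPKM lay at 0.08 with a pseudocount of 1, at 0.09 with a pseudocount of 0.1 and at 0.01 with no filter. In bulk RNA, a change in the number of cells of a type and a change in RNA per cell cannot be told apart.

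The intervals of the differences show what size of change the data allow. For 26 of the 30 genes both ends of the 95% interval of the fold change lay within 2-fold in either direction. The 4 exceptions were Fas and Trp53, whose intervals excluded 0, and the scarcely expressed Trp63 and Trp73. Between the controls, 12 of the 30 genes differed by more on the log2 scale than the groups did, and between the libraries labelled knockout 13 did. None of these counts was made over all transcripts, so they do not set the module apart from other genes.

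**Figure D1:**
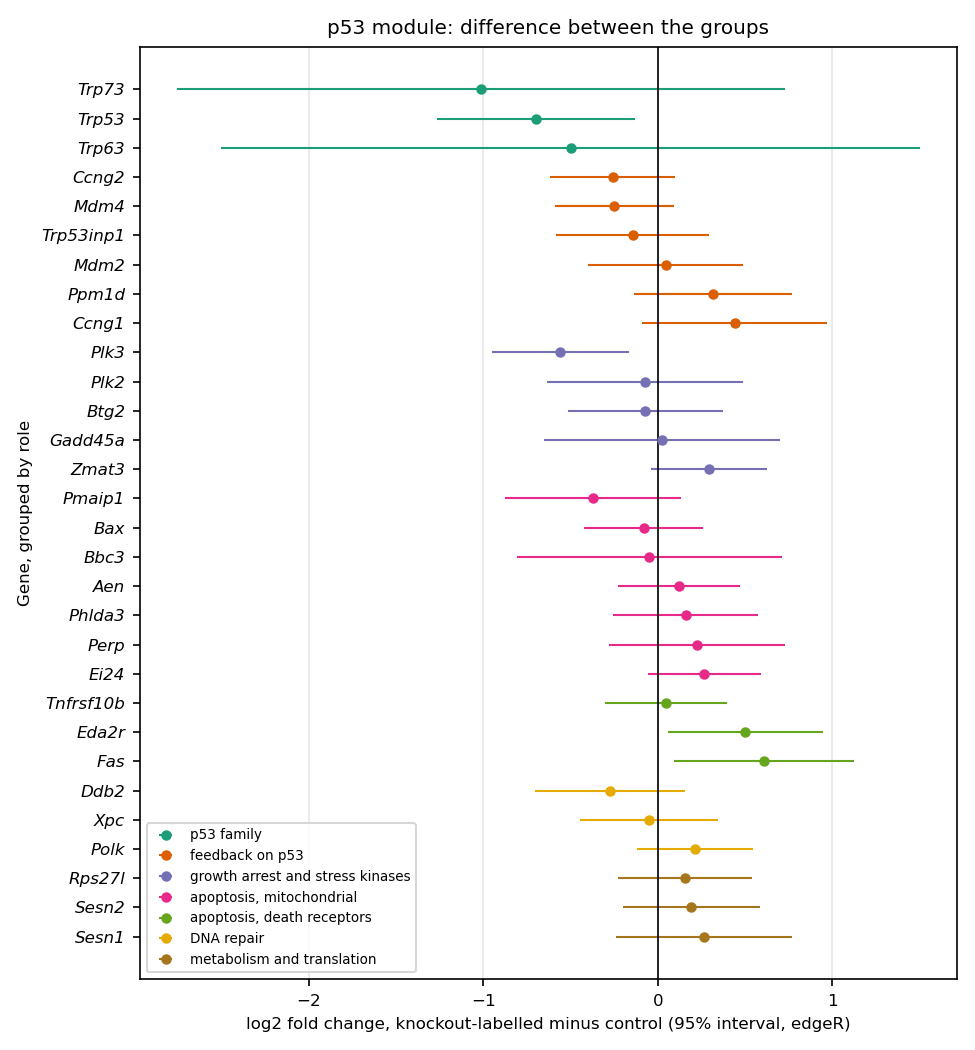
log2 fold change (libraries labelled knockout minus controls, x axis) of the 30 genes found by symbol, grouped and coloured by role (y axis). Bars are 95% intervals derived from the edgeR F test. In 26 of the 30 genes the interval includes 0; Trp63 and Trp73 have the widest intervals.

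Much of the module was expressed at high levels in both groups. On the RPKM scale, which is per length of transcript and so allows genes to be compared, 13 of the 30 genes lay in the upper 10 percent of the 15892 genes tested, and 24 lay above the median gene. Rps27l, a ribosomal protein gene induced by p53, was at the top with a mean of 403 RPKM, followed by Ccng1 at 277 RPKM and Plk2 at 237 RPKM. Of the 28 genes with a mean of at least 5 CPM, the lowest per length were Bbc3 at 2.01 RPKM, Ppm1d at 2.47 RPKM and Trp53 itself at 2.73 RPKM. Trp53 stood at percentile 44.1 of the tested genes by RPKM, while its targets Ccng1 and Plk2 stood at percentiles 99.5 and 99.4. The mouse genome also holds a processed copy of Trp53, and how reads shared with such copies were counted is not given in the sources used here. Rpl11, a ribosomal protein gene of which the genome holds many copies, was listed at only 2.71 to 4.01 CPM. Levels of genes with near-identical copies are therefore uncertain.

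**Figure D2:**
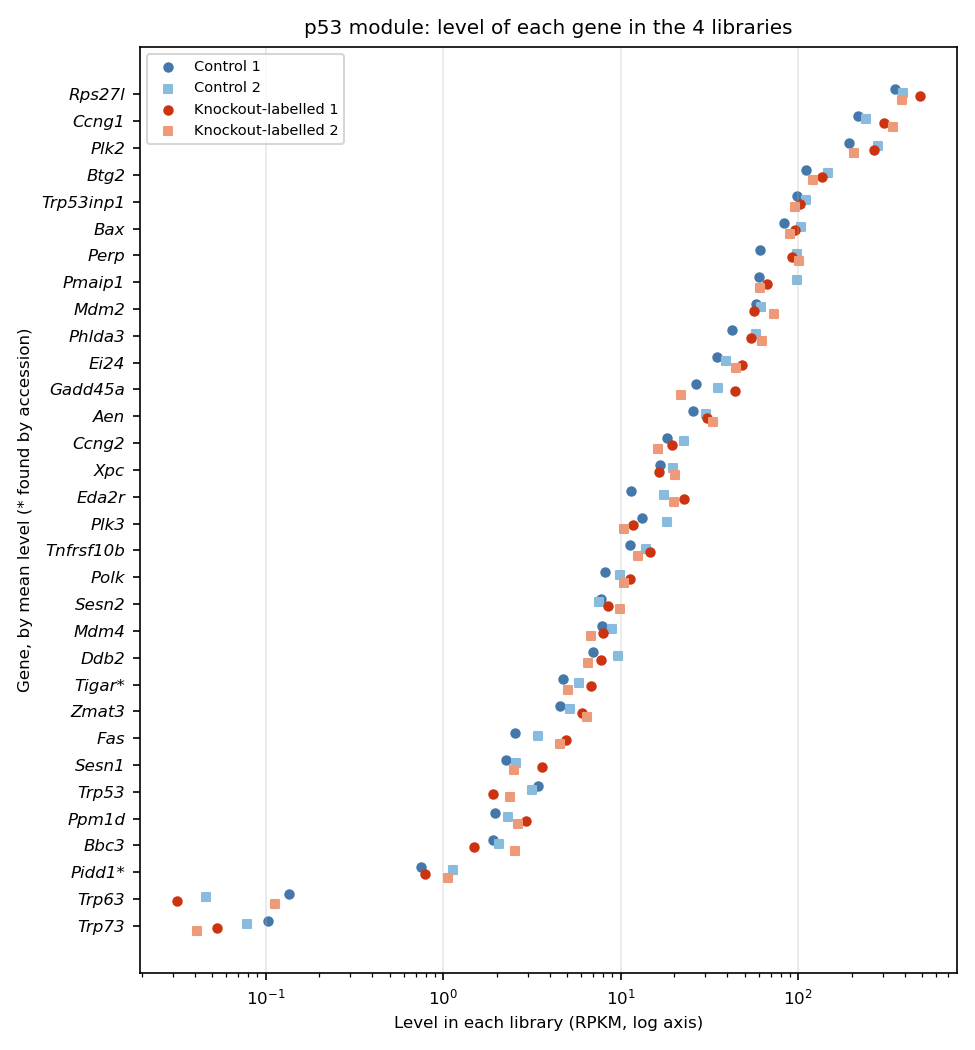
Level of each of the 32 genes in each library on the authors' RPKM scale (x axis, logarithmic), ordered by mean level (y axis); circles and squares are replicates 1 and 2 of each group. Mean levels run from 0.0689 RPKM for Trp73 to 403 RPKM for Rps27l, and Trp53 lies among the lower genes at 2.73 RPKM.

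The DNA element that p53 binds is a pair of half-sites, each a decamer, and it was looked for in the promoters to show which module genes carry it close to their start. Promoters were available for 24 of the 32 genes in a RefSeq table of build GRCm38.p6, each 250 bases before to 50 bases after a transcription start. The p53 half-site reads the same on both strands, so 1 search covers both. An exact half-site was found in 11 of the 24 genes, or 45.8%, against 9.55% of the 27025 genes with a promoter. A full site, made of 2 adjoining half-sites with at most 1 mismatch in all, was found in Ccng1 and Rps27l, against 0.0814% of all genes. Such a match is a description of the letters, not evidence of binding, and many known p53 sites lie in first introns outside these windows. The 250 bases before the start of these 2 genes are shown with the full site in capitals, at chr11:40755287-40755536 on the minus strand for Ccng1 and chr9:66946163-66946412 on the plus strand for Rps27l. The sites end 176 and 98 bases before the start.
Ccng1: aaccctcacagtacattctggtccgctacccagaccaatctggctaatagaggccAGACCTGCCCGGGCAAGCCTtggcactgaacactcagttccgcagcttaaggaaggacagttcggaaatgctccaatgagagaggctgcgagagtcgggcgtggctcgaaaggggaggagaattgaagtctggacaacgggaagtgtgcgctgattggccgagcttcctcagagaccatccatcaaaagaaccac
Rps27l: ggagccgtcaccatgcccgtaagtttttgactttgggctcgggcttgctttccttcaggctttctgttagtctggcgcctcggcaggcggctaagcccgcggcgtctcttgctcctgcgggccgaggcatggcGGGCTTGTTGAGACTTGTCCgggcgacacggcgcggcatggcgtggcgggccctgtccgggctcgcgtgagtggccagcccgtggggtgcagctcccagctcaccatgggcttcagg

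The other genes with an exact half-site are shown by a window of 30 bases with the half-site in capitals, so that the decamers can be compared. They lie at chr10:117710925-117710954 (minus strand) for Mdm2, chr11:85311112-85311141 (plus) for Ppm1d, chr11:69580274-69580303 (plus) for Trp53 and chr6:67037428-67037457 (minus) for Gadd45a. Those of Bax, Ei24, Aen, Sesn1 and Polk lie at chr7:45467080-45467109 (minus), chr9:36797325-36797354 (minus), chr7:78895927-78895956 (plus), chr10:41887256-41887285 (plus) and chr13:96519399-96519428 (minus).
Mdm2: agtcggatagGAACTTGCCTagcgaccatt
Ppm1d: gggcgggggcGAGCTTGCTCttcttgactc
Trp53: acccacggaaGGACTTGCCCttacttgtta
Gadd45a: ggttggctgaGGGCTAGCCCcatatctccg
Bax: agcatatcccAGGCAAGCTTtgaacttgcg
Ei24: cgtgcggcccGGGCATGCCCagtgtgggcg
Aen: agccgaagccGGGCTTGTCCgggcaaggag
Sesn1: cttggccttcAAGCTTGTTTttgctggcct
Polk: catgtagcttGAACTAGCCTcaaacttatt

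The 11 genes with an exact half-site had a median log2 fold change of 0.16, with 9 above 0 and 2 below. The 13 genes without one, Pidd1 and Tigar included, had a median of -0.07, with 5 above 0 and 8 below. The search was chosen after the values were seen, and the difference between the 2 sets was not tested. Trp53inp1, Trp63, Pmaip1, Zmat3, Perp, Tnfrsf10b, Ddb2 and Xpc were not searched.

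Of the p53 family, Trp53 had lower values in both libraries labelled knockout than in both controls, and its relatives had at most 28 counts in any library. Trp53, which encodes p53, had 9.07 and 7.74 CPM without the Cre, against 4.50 and 5.94 CPM under the knockout label, so the groups did not overlap. The means were 8.41 ± 0.939 CPM (SD, n = 2) and 5.22 ± 1.01 CPM (SD, n = 2), and the log2 fold change was -0.70 ± 0.24 (SE; edgeR adjusted p = 0.510). The 2 Trp53 transcripts in the table had log2 fold changes of -0.72 and -0.70. Their counts were nearly the same in each library, so they are not independent. With 1 library left to stand for its group, the log2 fold change was -0.92 without knockout replicate 2 and -0.53 without knockout replicate 1. It was -0.58 without control replicate 1 and -0.77 without control replicate 2.

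Trp63, which encodes the basal epithelial factor p63, had 28 and 8 counts in the controls, against 8 and 25 counts under the knockout label. The higher counts thus sat in 1 library of each group. Control replicate 1 and knockout replicate 2 also held the higher sums of several lists of markers of other cells. For 7 endothelial markers these were 11.2 and 8.06 CPM, against 3.97 and 3.13 CPM in the others. The acinar sums were 6.05 and 5.16 CPM against 2.68 and 3.46 CPM, the endocrine sums 4.01 and 2.32 against 1.74 and 1.37 CPM, and the lymphocyte sums 4.70 and 3.48 against 2.43 and 1.23 CPM. The macrophage sums were also higher in control replicate 1 and knockout replicate 2 than in the others, and those of fibroblast markers were not. The part of this in Trp63 was not tested. Of its 8 transcripts 5 were tested, with log2 fold changes from -0.51 to 0.02. Trp73, which encodes p73, had 19 and 12 counts against 12 and 8, a log2 fold change of -1.01 with a 95% interval from -2.76 to 0.73. Smaller differences in Trp63 and Trp73 were not detectable at this depth.

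Of the 6 genes grouped under feedback on p53, 3 had log2 fold changes above 0 and 3 below. Mdm2, the ubiquitin ligase that removes p53 and a standard readout of its activity, had 249 and 245 CPM without the Cre, against 215 and 295 CPM under the knockout label. Its controls thus lay between the 2 other libraries, and its log2 fold change was 0.04 ± 0.19 (SE), with a 95% interval of the fold from 0.758 to 1.40. Mdm4, the relative of Mdm2 that masks the activation domain of p53, had 38.7 and 40.9 CPM against 35.2 and 31.7 CPM. Ppm1d, the phosphatase Wip1 that shuts off damage signalling, had 8.02 and 8.84 CPM against 10.7 and 10.2 CPM. These 2 did not overlap between the groups, in opposite directions, with edgeR adjusted p of 0.798 and 0.816.

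Ccng1, the cyclin G gene that brings a phosphatase to Mdm2, was the most abundant member by CPM. It had 1074 and 1096 CPM without the Cre, against 1349.8 and 1594 CPM under the knockout label, with no overlap. The means were 1085 ± 15.5 CPM (SD, n = 2) and 1472 ± 173 CPM (SD, n = 2), and the log2 fold change was 0.44 ± 0.23 (SE; edgeR adjusted p = 0.744). Its relative Ccng2, which FoxO factors also induce, had 64.2 and 74.1 CPM against 61.5 and 54.1 CPM, so the 2 cyclin G genes lay on opposite sides. Trp53inp1, whose product promotes phosphorylation of p53 and autophagy, had 752 and 791 CPM against 699.7 and 697 CPM, a gap of -0.14 on the log2 scale with an edgeR adjusted p of 0.930.

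Among the genes of growth arrest, Plk3 had the smallest p of the whole module. Plk3, a stress-responsive polo-like kinase, had 44.2 and 56.4 CPM without the Cre, against 35.2 and 32.9 CPM under the knockout label. Both libraries labelled knockout were below both controls, with means of 50.3 ± 8.68 CPM (SD, n = 2) and 34.1 ± 1.62 CPM (SD, n = 2). The log2 fold change was -0.56 ± 0.17 (SE), a fold of 0.678 with a 95% interval from 0.517 to 0.890. Its edgeR adjusted p was 0.412. With 1 library left to stand for its group, the log2 fold change was -0.63 without knockout replicate 1 and -0.53 without knockout replicate 2. It was -0.73 without control replicate 1 and -0.34 without control replicate 2.

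Plk2, the other p53-induced polo-like kinase, had groups that overlapped, with 761 and 1039 CPM against 942 and 769.5 CPM. Zmat3, an RNA-binding protein that p53 induces, had 50.1 and 52.9 CPM against 59.8 and 66.4 CPM (log2 fold change 0.29, edgeR adjusted p = 0.728). Btg2, an antiproliferative gene, had 485 and 592 CPM against 531 and 495 CPM, and overlapped.

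Gadd45a, which is induced by DNA damage and slows the cell cycle, had the widest gap within a group among the 28 genes with a mean of at least 5 CPM. It had 46.3 and 56.4 CPM in the controls, 68.4 CPM in knockout replicate 1 and 35.6 CPM in knockout replicate 2. The first of these was above both controls and the other below both, a gap of 0.94 on the log2 scale, while the group difference was 0.02. Its log2 fold change was 0.40 without knockout replicate 2 and -0.55 without knockout replicate 1, so its direction depended on the library left out.

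The 7 genes found by symbol and grouped under mitochondrial apoptosis had 4 log2 fold changes above 0 and 3 below. Those below were Pmaip1 (-0.37), Bax (-0.08) and Bbc3 (-0.05). Those above were Ei24, Perp, Phlda3 and Aen, a looser set whose products are described below. Pmaip1, which encodes the BH3-only protein Noxa, had 226 and 341 CPM without the Cre, against 224 and 215 CPM under the knockout label, barely apart from control replicate 1. Without control replicate 2 its log2 fold change went from -0.37 to -0.01. Bbc3, which encodes Puma, the strongest p53-induced killer of this class, had 5.36 and 5.31 CPM against 3.72 and 6.71 CPM. Bax, the pore-forming effector, had 103 and 118 CPM against 105 and 104 CPM, inside the range of the controls.

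Ei24, a reticulum protein first found as a p53-induced gene, had 109 and 114 CPM against 135 and 133 CPM, without overlap and with a log2 fold change of 0.27 ± 0.14 (SE). The edgeR adjusted p of Ei24 was 0.751. Phlda3, an inhibitor of Akt, had 87.5 and 111 CPM against 101 and 122 CPM. Aen, an exonuclease of apoptosis, had 93.2 and 102 CPM against 99.3 and 113 CPM. Perp, a desmosomal protein and p53 and p63 target, had 164 and 244 CPM against 221 and 256 CPM. All 3 overlapped between the groups. Pidd1, which activates caspase-2 in the PIDDosome and was found by accession, had 3.06 and 4.30 CPM against 2.89 and 4.13 CPM, and overlapped (edgeR adjusted p = 0.978).

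All 3 death receptor genes had log2 fold changes above 0, from 0.05 for Tnfrsf10b to 0.61 for Fas. Fas, the receptor of Fas ligand, had 5.32 and 6.65 CPM without the Cre, against 9.21 and 8.97 CPM under the knockout label, with no overlap. The means were 5.98 ± 0.940 CPM (SD, n = 2) and 9.09 ± 0.175 CPM (SD, n = 2), and the log2 fold change was 0.61 ± 0.22 (SE; edgeR adjusted p = 0.537). The second Fas transcript, with 27 to 54 counts, had a log2 fold change of 0.10.

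Eda2r, the X-linked receptor of ectodysplasin A2, had 77.9 and 109.6 CPM without the Cre, against 138 and 127 CPM under the knockout label. The means were 93.7 ± 22.4 CPM (SD, n = 2) and 133 ± 8.18 CPM (SD, n = 2), and the log2 fold change was 0.50 ± 0.19 (SE; edgeR adjusted p = 0.577). Its 3 transcripts overlap in sequence, so they are not independent, and had log2 fold changes from 0.44 to 0.50. Without the female library, knockout replicate 2, the log2 fold change of Eda2r was 0.55, with 1 library left to stand for its group. It was 0.41 without knockout replicate 1, 0.27 without control replicate 1 and 0.80 without control replicate 2. Tnfrsf10b, the receptor of the ligand Trail, had 50.8 and 57.5 CPM against 59.0 and 52.7 CPM, and overlapped.

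**Figure D3:**
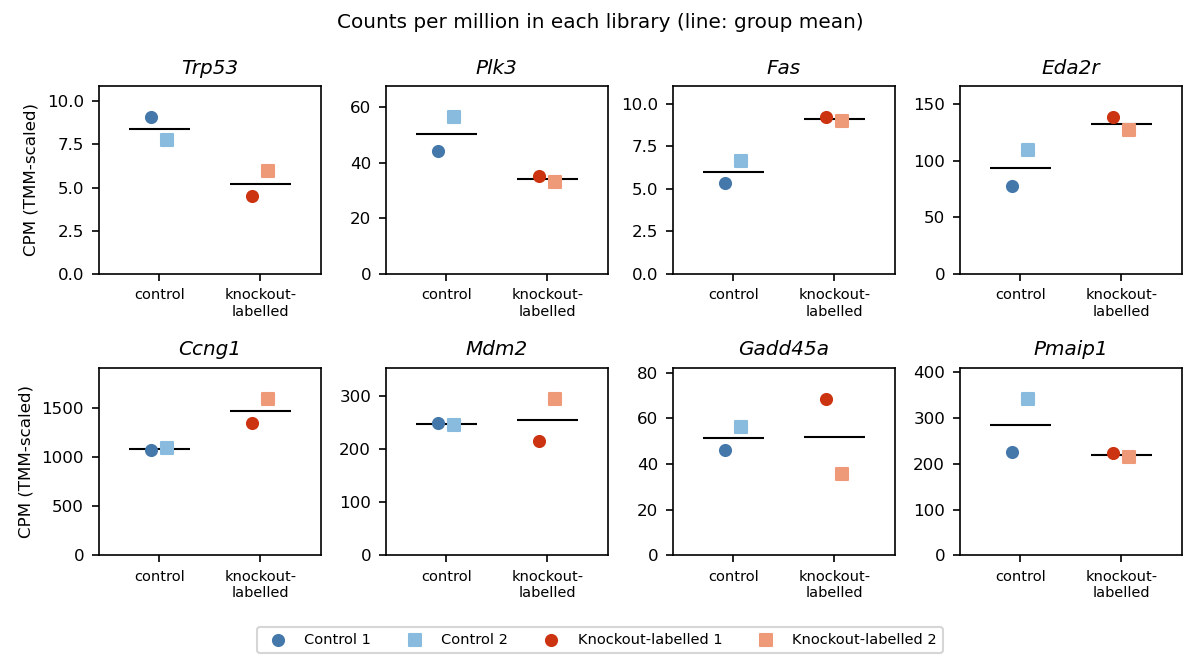
CPM (y axis, from 0) of 8 genes of the module in each library, with a line at each group's mean; circles are replicate 1 and squares replicate 2. Trp53, Plk3, Fas, Eda2r, Ccng1 and Pmaip1 do not overlap between the groups, while for Mdm2 and Gadd45a the 2 libraries labelled knockout lie on either side of the controls.

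Of the repair genes, Ddb2, which recognises ultraviolet lesions, had 19.0 and 24.1 CPM without the Cre, against 18.8 and 16.8 CPM under the knockout label. Its log2 fold change was -0.27 with an edgeR adjusted p of 0.844. Xpc, which works with it in nucleotide excision repair, had 85.8 and 93.1 CPM against 75.2 and 97.8 CPM. Polk, a polymerase that copies past damaged bases, had 48.6 and 54.5 CPM against 60.5 and 58.9 CPM, above both controls in each library labelled knockout (edgeR adjusted p = 0.845).

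In the metabolic group the sestrin genes, which restrain mTORC1 under stress, overlapped between the groups. Sesn1 had 10.2 and 10.7 CPM against 14.4 and 10.5 CPM, and Sesn2 had 29.1 and 26.4 CPM against 28.4 and 35.1 CPM. Rps27l had 232 and 236 CPM against 284 and 236 CPM, so that 1 library labelled knockout lay above the controls and the other barely above them. Tigar, which lowers glycolytic flux and was found by accession, had 24.6 and 27.7 CPM against 31.3 and 24.7 CPM, and overlapped (edgeR adjusted p = 0.942).

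Of all transcripts tested, 36.1% had groups that did not overlap. Among the module, 8 of the 30 genes were higher in both libraries labelled knockout than in both controls, or 26.7%, against 19.1% of all transcripts tested. Another 8 were lower in both, or 26.7%, against 17.0% of all transcripts. Both sets were drawn from several roles: Ccng1 and Ppm1d from the feedback group were among the first, and Mdm4, Ccng2 and Trp53inp1 from the same group among the second. Over the 28 genes with a mean of at least 5 CPM, the median shift from the control mean was -0.08 and 0.08 for the controls, against 0.03 and 0.07 under the knockout label. The same median over all 10195 genes at that level was -0.059 and 0.059 for the controls, against 0.077 and -0.0018 under the knockout label. The control values mirror each other because shifts are taken from the mean of the controls. The module's genes differed between the libraries labelled knockout with an SD of 0.331 on the log2 scale, against 0.201 between the controls and 0.338 to 0.386 between libraries of different groups. Over all genes at that level the SD was 0.520 between the libraries labelled knockout, 0.249 between the controls and 0.402 to 0.493 between groups.

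Leaving out 1 library at a time changed the count of calls over all transcripts: 882 were called higher and 860 lower without knockout replicate 1, and 1181 and 730 without knockout replicate 2. Without control replicate 1 none was called, and without control replicate 2 there were 0 higher and 3 lower, so a member called with a knockout library left out is read against those larger counts. Fas, Ccng1, Plk3 and Trp53 kept their sign each time, with log2 fold changes of 0.45 to 0.81, 0.30 to 0.53, -0.73 to -0.34 and -0.92 to -0.53. Eda2r kept its sign too (0.27 to 0.80), while Mdm2 went from -0.22 to 0.23 and Gadd45a from -0.55 to 0.40. In the genes that kept their sign the groups did not overlap. For Mdm2 and Gadd45a the libraries labelled knockout lay on either side of the controls. Both outcomes thus followed from how the libraries lay and are not a separate test. With library totals or upper-quartile factors in place of TMM, Gadd45a, Mdm2 and Tnfrsf10b turned to values between -0.06 and 0.00, and on RPKM Btg2, Plk2 and Xpc turned to 0.00 to 0.01.

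**Figure D4:**
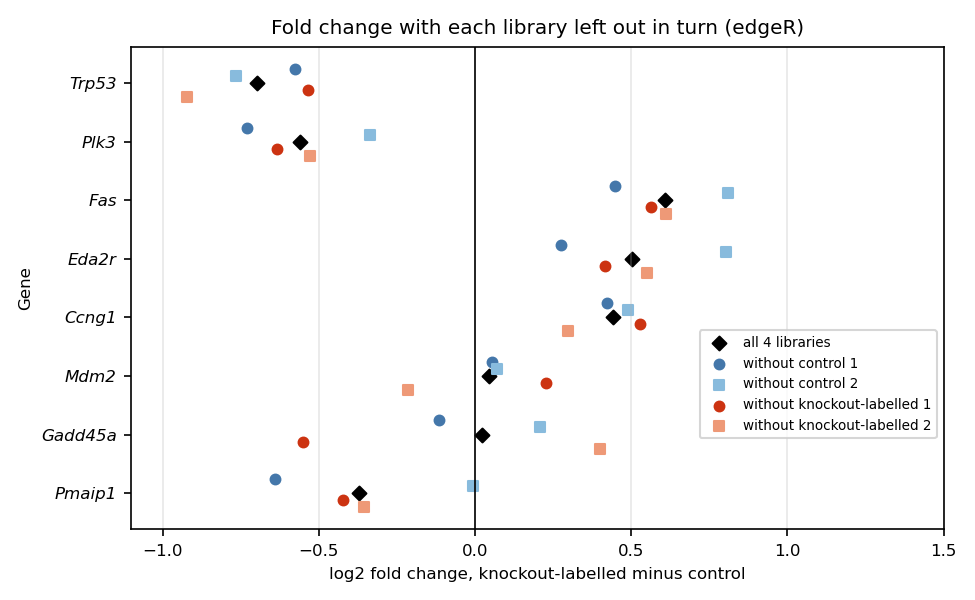
log2 fold change (x axis) of the same 8 genes (y axis) from edgeR with all 4 libraries (diamonds) and with each library left out in turn (circles and squares, coloured by the library left out). The points of Trp53, Plk3, Fas, Eda2r and Ccng1 stay on 1 side of 0, and those of Mdm2 and Gadd45a fall on both sides. Both patterns follow from whether the groups overlap and are not a separate test.

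Of a further 25 p53 targets, 23 were tested and none was called. Cdkn1a, which encodes the cell cycle inhibitor p21 and is the classic p53 target, had 21.97 and 20.2 CPM without the Cre, against 20.4 and 23.3 CPM under the knockout label. Its log2 fold change was 0.05 with a 95% interval from -0.33 to 0.43. The list's median was 0.05, with 15 values above 0 and 8 below. Ephx1, a microsomal epoxide hydrolase, had 74.8 and 81.0 CPM against 126 and 127 CPM, the smallest p of the list (log2 fold change 0.70 ± 0.14 SE, edgeR adjusted p = 0.176). It passed with DESeq2 (log2 fold change 0.72, DESeq2 adjusted p = 0.0183).

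Dgka, a diacylglycerol kinase, had 15.01 and 15.4 CPM against 23.7 and 27.1 CPM (edgeR adjusted p = 0.219). Cd82, a metastasis-suppressing tetraspanin, had 26.9 and 28.5 CPM against 22.7 and 17.2 CPM. Abcb1a, a drug efflux pump, had 31.3 and 39.4 CPM against 40.6 and 80.2 CPM, highest in knockout replicate 2. At an unadjusted p under 0.05 this list had 3 genes higher (13.0% against 4.70% of all transcripts) and 1 lower (4.35% against 2.81%).

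Of the 22 genes of damage signalling, 21 were found and tested, and none was called or had an unadjusted p under 0.05. Their log2 fold changes lay between -0.10 and 0.41. Atm, the kinase that senses double-strand breaks, had 41.2 and 45.6 CPM without the Cre, against 47.0 and 43.6 CPM under the knockout label. Chek2, its partner kinase, had 21.0 and 19.8 CPM against 21.0 and 19.7 CPM, a log2 fold change of -0.01 with a 95% interval from -0.37 to 0.36. Mdc1, a scaffold at broken ends, had the highest value, with 7.21 and 7.38 CPM against 9.00 and 10.5 CPM (edgeR adjusted p = 0.738). These kinases act mainly through phosphorylation, which transcript levels do not show.

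None of the 12 genes of end joining and 12 of homologous recombination was called, and none had an unadjusted p under 0.05. Parp1, which binds broken ends, had 84.8 and 94.99 CPM against 115.5 and 106 CPM, and Bard1, the partner of Brca1, 4.37 and 3.45 CPM against 5.28 and 6.32 CPM. Their edgeR adjusted p were 0.725 and 0.717. The medians of the lists were 0.04 and -0.05.

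None of the 20 regulators and cofactors of p53 was called, with a median of 0.06. Trp53bp2, a cofactor that steers p53 to cell death genes, had 17.3 and 17.4 CPM against 13.4 and 12.9 CPM (log2 fold change -0.40, edgeR adjusted p = 0.638). Cdkn2a, whose Arf product blocks Mdm2, had 15.4 and 12.04 CPM against 10.4 and 15.6 CPM. Of the 13 genes of the mitochondrial death machinery none was called either, with a median of 0.01. Bcl2l1, which encodes the survival factor Bcl-xL, had 172 and 188 CPM against 251 and 206 CPM (edgeR adjusted p = 0.728).

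Proliferation genes, which p53 lowers through p21, had the highest median of the pathway lists. Of 20 tested, 17 had log2 fold changes above 0 with a median of 0.21, none was called, and 4 had an unadjusted p under 0.05, all higher (4 of 20, against 4.70% of all transcripts). Ccnb2, a mitotic cyclin, had 8.49 and 7.22 CPM without the Cre, against 13.5 and 15.97 CPM under the knockout label (edgeR adjusted p = 0.225). Top2a, the topoisomerase of dividing cells, had 100.01 and 86.8 CPM against 118 and 132 CPM. Ccnb1 and Cdk1 had log2 fold changes of 0.70 and 0.37. The list's sum was 542 and 499 CPM without the Cre, against 564 and 673 CPM under the knockout label.

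**Figure D5:**
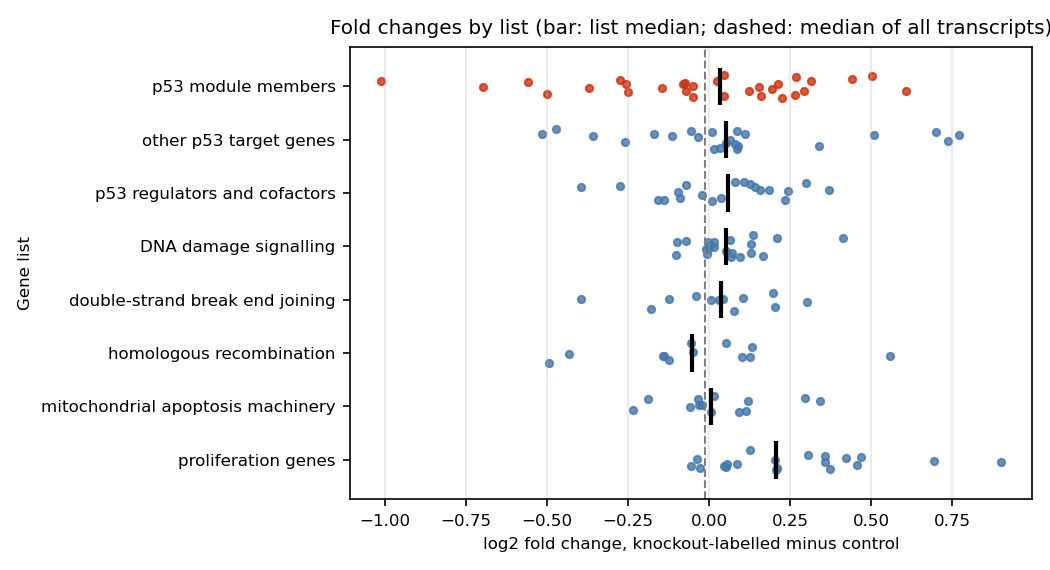
log2 fold change (x axis) of every tested gene of the p53 module and of 7 related lists (y axis), 1 point per gene, with a bar at each list's median and a dashed line at the median of all transcripts (-0.01). The medians lie between -0.05 and 0.06 for every list shown except proliferation, at 0.21.

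Fibroblast and stellate markers summed, over 11 genes, to 15.8 and 10.9 CPM without the Cre, against 7.10 and 10.1 CPM under the knockout label, and 8 of the 9 tested had log2 fold changes below 0. Macrophage markers summed to 164 and 148 CPM against 127 and 214 CPM, of which Cd14 made up 108 to 205 CPM, while Ptprc, the marker of all leukocytes, stayed at or under 0.802 CPM. The part of these cells in any value of the module was not tested.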

How the data were processed

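RNA of 4 cultures was sequenced, 2 per group. The authors deposited raw counts and RPKM values for 28644 RefSeq transcripts. RPKM are reads per length and library total, but the totals implied by the deposited RPKM, relative to control replicate 1, were 0.832, 1.22 and 1.06 in the other libraries, not in proportion to the deposited count totals. Which total the authors used is not given in the sources used here, so RPKM carry a different scaling between libraries from the counts. Per the submitters' processing notes the build was mm9 and edgeR was used. Aligner, counting program and strand handling are not given in the sources used here. Counts were tested with edgeR 4.0.16 in R 4.3.3 (filterByExpr with minimum count 10 and minimum total 15, TMM factors, quasi-likelihood F test, Benjamini-Hochberg adjustment over 20949 transcripts, threshold 0.05). The common biological coefficient of variation was 0.234. Standard errors (SE) were derived as the absolute log2 fold change over the square root of the F statistic. The 95% intervals were built from these with a t distribution, as edgeR gives neither directly. With 2 libraries per group an exact permutation test cannot pass the threshold and was not run. Scripts were tested on simulated data. Alternatives used limma 3.58.1 on log2(RPKM + 1) or log2(RPKM + 0.1) with a mean RPKM of at least 0.5 or no filter, DESeq2 1.42.0, other scalings and filters, 1 transcript or summed counts per symbol, and each library left out. Values per library are given for genes with an unadjusted p under 0.05, with groups that do not overlap at a mean of at least 5 CPM, with extreme fold changes or with high levels, and for others as their role is described; from the other lists for those with the smallest p and for Cdkn1a. Atm, Chek2 and Cdkn2a were named after their values were seen. The members and lists were chosen with earlier results of these data known. The promoter search was chosen after the values were seen. The p-values measure only the spread between these 4 cultures. Promoters came from a RefSeq table of build GRCm38.p6, matched by symbol, with no conversion from mm9.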

Additional observations from a re-analysis of the deposited data

How the results depend on the processing

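None of the 30 module genes was called under any of the 11 alternatives that kept all 4 libraries. The number of transcripts called higher and lower was 207 and 96 with DESeq2, 94 and 50 on log2(RPKM + 0.1), 97 and 54 on log2(RPKM + 1), 0 and 4 on RPKM with no filter, 0 and 2 with 1 transcript per symbol, and 0 and 4 with a CPM filter. It was 0 and 5 both with library totals and with upper-quartile factors, and 11 and 3 with counts summed per symbol. With no filter on the counts it was 19 and 6, and with RLE factors in place of TMM 19 and 7. DESeq2 called 1 gene of the other lists, Ephx1. With 1 library left out, transcripts called ranged from 0 to 1181 (higher) and from 0 to 860 (lower), members called from 0 to 1 and from 0 to 2, genes of the other lists from 0 to 9 and from 0 to 1, and the module's median from -0.039 to 0.168. Of the genes of other lists given above, Abcb1a, Ccnb1, Ccnb2, Cd82, Dgka, Ephx1 and Top2a passed without knockout replicate 1, and Bcl2l1, Ccnb1, Ccnb2, Dgka and Ephx1 without knockout replicate 2. A group of 1 library was assumed to vary like the other. On RPKM the log2 fold changes of Btg2 (0.0042 with a pseudocount of 0.1, 0.0041 with 1, filtered or not), Plk2 (0.0059, 0.0058) and Xpc (0.0083, 0.0081) turned positive. Gadd45a turned to -0.0060 with a CPM filter. With library totals and upper-quartile factors, Gadd45a turned to -0.059 and -0.031, Mdm2 to -0.024 and -0.00059, and Tnfrsf10b to -0.028 and -0.0023. With 1 library left out, log2 fold changes crossed 0 for Bax (-0.18 to 0.057), Bbc3 (-0.54 to 0.30), Btg2 (-0.21 to 0.12), Gadd45a (-0.55 to 0.40), Mdm2 (-0.22 to 0.23), Perp (-0.038 to 0.58), Phlda3 (-0.0073 to 0.38), Plk2 (-0.28 to 0.21), Rps27l (-0.012 to 0.27), Sesn1 (-0.0099 to 0.45), Tnfrsf10b (-0.063 to 0.18), Trp63 (-1.69 to 0.58) and Xpc (-0.27 to 0.10). The cause of these shifts was not tested. No paired analysis was possible because the labels give the groups no shared replicate numbers.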
